A study of Mus musculus with 8 samples.

Results

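Genes of the neuroblast and GABAergic progenitor program were followed in single-cell RNA sequencing of the adult mouse prefrontal cortex (PFC) and striatum. The 9 genes were Dlx1, Dlx2, Dlx5, Dlx6, Sp8, Sp9, Sox11, Dcx and Meis2, chosen by symbol, and all 9 were found among the 31053 genes of the count matrices, 22176 of which had at least 1 UMI (unique molecular identifier, a counted transcript molecule) in the annotated cells. All of them but Dcx encode transcription factors, and Dcx encodes a protein that binds microtubules. The 8 libraries were 2 WT and 2 Setd1a+/- libraries from each tissue, all from male C57BL/6N mice, with the tissue of 2 mice pooled in each. The labels give an age of 8 to 10 weeks and name the striatal tissue as NAc, whereas the methods give an older age and dorsal and ventral striatum. The Setd1a+/- mice carried a CRISPR-Cas9 frameshift in exon 15 of a single Setd1a copy, made in BDF1 zygotes and backcrossed, and the WT mice were their littermates.

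In the adult forebrain, stem cells of the subventricular zone, which lines the lateral ventricle beside the striatum, give rise to dividing precursors and then to neuroblasts that migrate to the olfactory bulb and become GABAergic interneurons. The DLX homeodomain factors act along this lineage and lie in the genome as closely linked pairs, SP8 and SP9 are zinc finger factors of the same precursors, and MEIS2 is a homeodomain cofactor used in olfactory bulb and striatal neurons. SOX11, an HMG-box factor, and DCX are widely used to mark immature neurons.

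Dlx1 (chr2:71528113-71533981, plus strand) and Dlx2 (chr2:71543408-71546754, minus strand) lie 9426 bases apart in the mouse genome (GRCm38, GENCODE vM21). Dlx5 (chr6:6877805-6882085, minus strand) and Dlx6 (chr6:6863334-6868568, plus strand) lie 9236 bases apart. The span of the antisense transcript Dlx1as covers all 5869 bases of Dlx1, and that of Dlx6os1 all 5235 bases of Dlx6. Whether their exons share bases was not examined, and reads of any shared stretch can be told apart only by strand. Sp9 (chr2:73271925-73284706) and Meis2 (chr2:115863064-116065839) lie elsewhere on chromosome 2, Sp8 (chr12:118846329-118852576) and Sox11 (chr12:27334264-27342574) on chromosome 12, and Dcx (chrX:143855842-143933311) on the X chromosome.

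The 250 bases before a RefSeq start (GRCm38.p6) are shown for Dlx2, Sp8 and Sox11, genes at their highest in the neuroblast cluster whose window holds no annotated exon. RefSeq windows matched 7 of the 9 genes. Capitals mark matches on either strand to the homeodomain core TAATTA, to the MEIS core TGACAG, which reads as CTGTCA from the other strand, to the GC box GGGCGG, which reads as CCGCCC, or to the E-box CAGCTG, none of which overlap here.
Dlx2 promoter, chr2:71546755-71547004, minus strand: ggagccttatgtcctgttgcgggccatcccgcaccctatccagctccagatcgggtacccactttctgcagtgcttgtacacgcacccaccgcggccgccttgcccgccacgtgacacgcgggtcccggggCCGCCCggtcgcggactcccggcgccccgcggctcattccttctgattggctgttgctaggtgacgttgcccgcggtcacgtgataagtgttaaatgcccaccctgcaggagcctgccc
Sp8 promoter, chr12:118846079-118846328, plus strand: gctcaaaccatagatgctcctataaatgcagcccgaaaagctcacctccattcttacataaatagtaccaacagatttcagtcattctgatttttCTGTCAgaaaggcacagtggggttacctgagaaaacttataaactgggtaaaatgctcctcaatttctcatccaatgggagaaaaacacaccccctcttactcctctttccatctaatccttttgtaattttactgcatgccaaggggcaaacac
Sox11 promoter, chr12:27342719-27342968, minus strand: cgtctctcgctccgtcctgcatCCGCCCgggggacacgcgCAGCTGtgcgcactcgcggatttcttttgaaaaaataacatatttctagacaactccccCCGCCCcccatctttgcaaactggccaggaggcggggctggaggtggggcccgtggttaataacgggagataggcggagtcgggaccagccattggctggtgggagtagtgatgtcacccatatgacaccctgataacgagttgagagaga
The Dlx2 window held 1 GC box, that of Sp8 shown here 1 MEIS core, and that of Sox11 2 GC boxes and 1 E-box. A window before another RefSeq start of Sp8, inside the gene (chr12:118846983-118847232), also holds no annotated exon, and it held 1 GC box and no MEIS core. Of 32851 windows of the same length, 32.7% held a GC box, 15.9% a MEIS core, 13% an E-box and 4.84% a homeodomain core, so these matches are a description of the sequence and no sign of binding.

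The authors annotated 23687 cells, 8997 from the PFC and 14690 from the striatum, and placed 437 striatal cells in a cluster named NB for neural stem cells and neuroblasts. NB cells numbered 105 and 63 in the WT and 214 and 55 in the Setd1a+/- libraries, which was 2.41 and 1.56% against 5.64 and 2.20% of the annotated cells of each library. All 8 NB markers, Pclaf, Rrm2, Top2a, Dcx, Sox11, Cd24a and Igfbpl1 among them, were detected in every striatal library and were higher in NB than in any other striatal cluster, Dcx and Sox11 being genes followed here. Their summed level was 7599 to 8673 UMIs per 1e6 (CPM) in NB cells. The markers of other types summed to 326 to 436 CPM for interneurons, 134 to 187 for D1 medium spiny neurons (MSNs) and 48.9 to 143 for D2 MSNs. They summed to 48.9 to 188 CPM for oligodendrocytes and to at most 141 for each other glial or vascular type, and excitatory neuron markers to at most 8.35 CPM. Of the interneuron markers, Gad1, Gad2, Elavl2, Sst and Npy were detected and Chat, Pvalb and Vip were at 0 in all 4 libraries. The annotated cells held 5999666 to 13521114 UMIs per library, and no pair of libraries shared more than 24 cell barcodes. How doublets were treated is not given in the sources used here, and no doublet caller was run. Setd1a itself was read from 1 to 6 UMIs in the NB cells of a library, too few for its count to check the genotype. Transcripts are tagged at their poly(A) end, which the edit leaves in place, so reads do not tell the edited copy apart.

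Across the 18 combinations of tissue and cell type, 7 of the 9 genes had their highest mean level in NB, and the other 2, Dlx6 and Meis2, had theirs in MSNs. Because the types came from clustering on the expression of these same cells, levels by cell type are given as a description without a test. CPM here is a gene's share of all UMIs that a library's cells of a given type hold together, scaled to 1e6, and levels of different genes are not ranked, since capture differs between transcripts. In NB, Sox11 stood at 2282 ± 262 CPM (SD, n = 4 libraries) and had a UMI in 94.3% of cells. The next highest types were OPCs (oligodendrocyte precursor cells), with 129 ± 10.6 CPM in the PFC and 128 ± 27.2 in the striatum, values that lay within each other's spread. In striatal oligodendrocytes, a type that should lack these genes, a Sox11 UMI was found in 1.66% of cells, at a median of 2076 UMIs per cell against 2518 in NB.

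**Figure D1:**
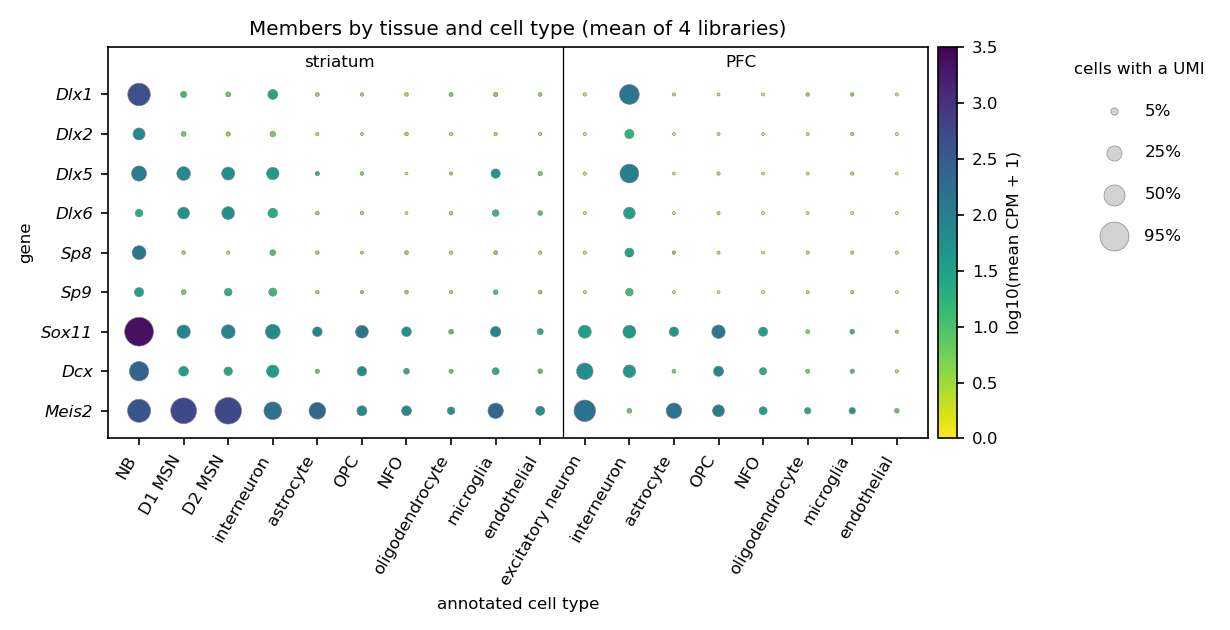
Mean level and detection of the 9 genes in each annotated cell type of the striatum (left of the line) and PFC (right). NFO stands for newly formed oligodendrocytes. Colour gives log10 of the mean CPM of 4 libraries plus 1 and dot area the share of cells with a UMI. Sox11 reaches 94.3% of NB cells, Dlx1 is seen mainly in NB and PFC interneurons, and Meis2 is high in both MSN types as well as in NB.

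The linked genes Dlx1 and Dlx2, which encode homeodomain factors of early GABAergic precursors, followed the same order of cell types at the top. Dlx1 was 436 ± 25.9 CPM in NB, 133 ± 38.3 in PFC interneurons and 24.8 ± 10.2 in striatal interneurons (n = 4 each), and the libraries of these 3 types did not overlap. Its share of cells with a UMI was 57.4% in NB, 44.0% in PFC interneurons and 0.938% in striatal oligodendrocytes, or 43.6, 13.8 and 0.557% after each cell was thinned to 1500 UMIs. Dlx2 was 69.9 ± 14.2 CPM in NB, where 15.6% of cells had a UMI, 15.6 ± 8.28 in PFC interneurons and at most 5.33 CPM on average in every other type. Over the 18 groups, the gene whose pattern of log2(CPM + 1) was most like that of Dlx1 among 11304 genes was Dlx2 (Pearson r = 0.96), followed by Dlx1as (r = 0.92) and Sp8 (r = 0.91). These correlations rest on 18 means that share libraries in groups, so they describe the pattern only.

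Dlx5 and Dlx6, the other linked pair, had a second site of expression in mature striatal neurons. Dlx5 was 107 ± 33.1 CPM in NB and 101 ± 22.8 in PFC interneurons, which overlapped, then 71.3 ± 6.43 in D1 MSNs and 57.6 ± 7.79 in D2 MSNs. Dlx6 was 55.8 ± 4.42 CPM in D2 MSNs and 49.7 ± 4.37 in D1 MSNs, whose libraries overlapped, against 18.4 ± 7.69 in NB, where it rested on 25 UMIs in 437 cells. Dlx6 in each D2 library, 51.8 and 58.1 in WT against 60.9 and 52.5 in Setd1a+/- mice, was above all 4 NB values, 17.0 and 23.5 in WT against 25.1 and 8.15 in Setd1a+/- mice. The 3 genes most like Dlx5 in pattern were Dlx6os1 (r = 0.96), Dlx6 (r = 0.95) and Gad2 (r = 0.90), which encodes a GABA-synthesizing enzyme. Dlx6os1 itself was 244 ± 71.4 CPM in NB, 195 ± 37.5 in PFC interneurons and 34.1 ± 6.34 in D1 MSNs. Like Dlx5, and unlike Dlx6, which it overlaps, it was highest in NB.

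Sp8 and Sp9, related zinc finger genes, shared the NB maximum and differed elsewhere. Sp8 was 137 ± 43.7 CPM in NB, with a UMI in 21.1% of cells, 25.7 ± 9.75 in PFC interneurons, 9.06 ± 1.58 in striatal interneurons and 0.656 in D2 MSNs. Sp9 was 31.8 ± 17.3 CPM in NB, from 44 UMIs, and 17.1 ± 4.13 in D2 MSNs, 13.4 ± 5.01 in striatal interneurons, 11.5 ± 7.08 in PFC interneurons and 4.95 ± 1.01 in D1 MSNs. For Sp9 the NB, interneuron and D2 MSN libraries overlapped, whereas every D2 MSN library (12.5 and 17.8 CPM in WT, 15.6 and 22.4 in Setd1a+/-) was above every D1 MSN library (4.12 and 6.42 in WT, 4.50 and 4.77 in Setd1a+/-). The nearest pattern to Sp8 was that of Dlx1 (r = 0.91), and the nearest to Sp9 that of Dlx6os1 (r = 0.90).

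Dcx, whose product stabilizes microtubules in migrating neurons, was 244 ± 59.0 CPM in NB and was also found in OPCs and in neurons of the adult cortex. OPCs held 70.0 ± 12.3 CPM in the PFC and 60.1 ± 5.70 in the striatum, and PFC excitatory neurons 55.6 ± 5.31, 3 groups whose libraries overlapped. Among the 7 excitatory subtypes, upper-layer SL-Cux2 neurons had 81.0 ± 7.05 CPM (626 cells) and deep-layer DL-Foxp2 neurons 37.1 ± 10.3 (743 cells), and the libraries of these 2 subtypes did not overlap. The genes most like Dcx in pattern were Med19 (r = 0.93), Dpysl3 (r = 0.92), which encodes another cytoskeletal protein of growing axons, and Slc24a5 (r = 0.91). For Sox11 they were Hmgb3, H2afx and Cenpt (each r = 0.88).

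Meis2 was the gene least like the others in pattern. It was 556 ± 103 CPM in D1 and 548 ± 104 in D2 MSNs, whose libraries overlapped, and 364 ± 131 in NB. By library, D1 MSNs had 586 and 503 CPM in WT against 687 and 450 in Setd1a+/- mice, and NB cells 397 and 247 in WT against 535 and 277 in Setd1a+/- mice. The NB and MSN libraries overlapped. Its correlation with the other 8 genes over the 18 groups was 0.15 with Dlx1, the lowest of the 36 pairs, and 0.68 at most, with Sox11. The nearest pattern was that of Foxp2 (r = 0.80), a transcription factor gene of MSNs and deep-layer cortical neurons. Within PFC excitatory neurons Meis2 ran from 66.2 ± 14.4 CPM in DL-Etv1 and 75.0 ± 5.56 in DL-Nnat neurons to 251 ± 42.6 in DL-Foxp2, 284 ± 27.7 in DL-Tshz2 and 291 ± 34.9 in SL-Myh7 neurons. The 2 lowest subtypes overlapped each other, as did the 3 highest, and the lowest and highest sets did not meet.

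Several of the 9 genes were also listed in types that should lack them. Barcodes with at most 100 UMIs, which hold mostly free RNA, had 236 to 259 CPM of Meis2 in the striatal libraries and 68.7 to 113 in the PFC. For Dlx5 they had 36.2 to 53.1 CPM in the striatum against 2.68 to 12.1 in the PFC, and for Dlx6 38.9 to 52.1 against 1.63 to 3.87. Striatal microglia, which should lack these genes, listed 223 ± 40.4 CPM of Meis2, 43.5 ± 22.4 of Dlx5 and 12.8 ± 10.4 of Dlx6, beside 1638 to 2540 CPM of 8 MSN markers. Set against those markers, microglia had 10.7 Meis2 UMIs per 100 MSN marker UMIs (range 8.82 to 13.5). That range overlapped D1 MSNs at 9.21 (7.86 to 11.4) and lay above D2 MSNs at 6.46 (5.21 to 7.28). NB cells had 147 (82.4 to 258), striatal interneurons 37.6 (24.2 to 58.7) and striatal astrocytes 40.0 (20.4 to 73.6), all above the D1 MSN range. Striatal OPCs, at 18.1 (12.8 to 24.5), were above it as well. For Dlx5 the ratio was 41.0 in NB (24.1 to 58.1) and 8.58 in striatal interneurons (6.21 to 11.8), against 1.18 in D1 MSNs (1.11 to 1.25) and 2.06 in microglia (0.956 to 2.94), whose range took in that of D1 MSNs. The microglial range lay above that of D2 MSNs, at 0.681 (0.593 to 0.793). For Dlx6 it was 7.22 in NB (3.45 to 12.1) and 4.44 in striatal interneurons (3.19 to 5.82), against 0.827 in D1 MSNs (0.718 to 0.944) and 0.635 in microglia (0 to 1.04).

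Most NB cells held several of the 9 genes at once. At least 3 were detected in 300 of 437 NB cells, or 68.6%, against 20.8% of PFC interneurons, 14.9% of D2 MSNs, 14.5% of D1 MSNs and 12.5% of striatal interneurons, and up to 8 were found in a single NB cell. After the same thinning, which left out shallower cells and kept 411 NB cells, the shares were 50.4% in NB and 1.38, 2.51, 3.09 and 1.10% in the other types in the same order. A UMI of any Dlx gene was present in 67.7% of NB cells and 71.5% of PFC interneurons, against 1.71% of striatal oligodendrocytes, at medians of 2518, 5203.5 and 2076 UMIs per cell. After thinning the shares were 57.4, 33.1 and 0.985%, so the order of the first 2 depends on depth.

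**Figure D2:**
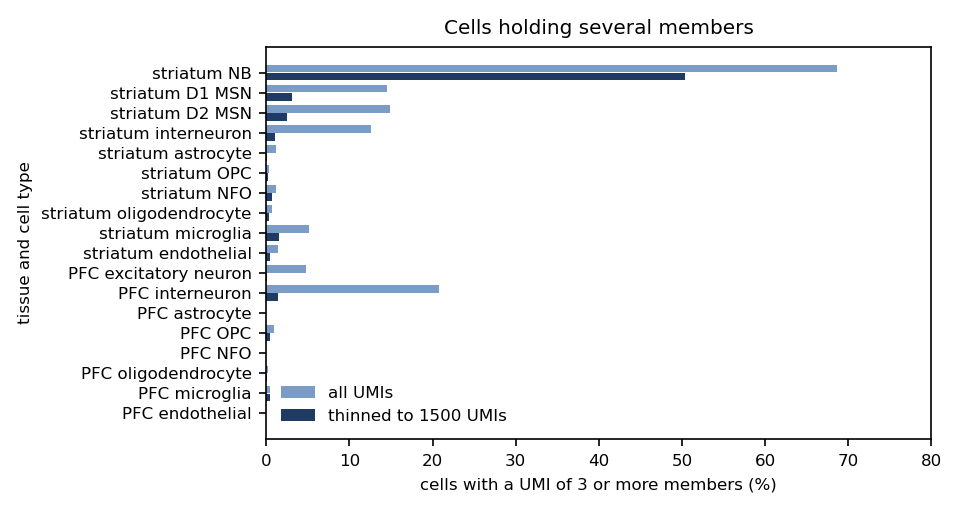
Share of cells with a UMI of 3 or more of the 9 genes in each tissue and cell type, over all UMIs (light bars) and after thinning each cell to 1500 UMIs (dark bars). NB stands at 68.6 and 50.4%, and the thinned share is at most 3.09% in every other type.

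Pairs of genes differed in how often they met in the same thinned NB cell. Dlx5 and Dlx6, the linked pair, were found together in 1.70% of cells (7 cells), 3.44 times the 0.495% given by the product of their shares, but over all UMIs in 12 of 437 cells, 1.91 times the product. Dlx5 and Sp8 met in 5.84% of cells, 2.13 times the product, and Sp8 and Dcx in 8.27%, 1.85 times the product. Dlx1 and Dlx2, also linked, met in 3.89% of cells, 1.11 times the product. Dlx1 and Sp8, whose patterns across cell types were alike, met in 6.33% of cells, 0.979 times the product. Over all UMIs these 4 ratios were 1.73, 1.55, 1.28 and 1.04 in the same order. The counts are small and cells of a library are not replicates, so no test was made.

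The genotype comparison asked whether the loss of a Setd1a copy, which encodes a histone H3K4 methyltransferase, went with a change of these genes in NB cells. Dlx1 was 407 and 429 CPM in WT against 469 and 440 in Setd1a+/- NB cells. Sox11 was 2345 and 1903 CPM in WT against 2375 and 2503 in Setd1a+/- mice. For both genes the Setd1a+/- libraries lay above the WT libraries, by margins smaller than the distance between libraries of the same genotype. Dlx5 was 126 and 123 CPM in WT against 120 and 57.1 in Setd1a+/- mice, the last value resting on 7 UMIs. The genotypes did not overlap for Dlx5 either, but in the lower direction. Of the 7 genes with enough counts to be tested, these 3 did not overlap between genotypes, and among all 3598 genes tested 29.9% did not.

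Sp9, which fell below the count filter, was 17.0 and 17.6 CPM in WT against 51.8 and 40.8 in Setd1a+/- NB cells, without overlap, from 5, 3, 31 and 5 UMIs. With no filter its log2 fold change was 1.55 ± 0.58 (SE), with an adjusted p = 0.978 from edgeR. Dlx6, also below the filter, was 17.0 and 23.5 CPM in WT against 25.1 and 8.15 in Setd1a+/- mice, which overlapped. Dlx2 (57.7 and 70.5 against 61.8 and 89.7 CPM), Sp8 (78.1 and 170 against 170 and 130), Dcx (170 and 305 against 274 and 228) and Meis2 (397 and 247 against 535 and 277) all overlapped between genotypes. Between libraries of the same number, which were taken as pairs, Dlx2 and Meis2 were higher in Setd1a+/- mice in both pairs, and Sp8 and Dcx in 1 pair each.

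No gene was called between genotypes in NB cells by edgeR (an FDR under 0.05 and a fold change above 1.5), that is 0% of 3598 genes, and so none of the 7 tested members. DESeq2 also called 0, and 109 genes had an unadjusted p under 0.05 in edgeR. Pairing the libraries by replicate number in the model gave 5 calls, none of them a member, and leaving out a library gave 0 to 25. The log2 fold changes of Setd1a+/- over WT were 0.48 ± 0.33 (SE) for Sp8, 0.42 ± 0.29 for Meis2, 0.24 ± 0.23 for Sox11, 0.21 ± 0.28 for Dcx, 0.17 ± 0.23 for Dlx1, 0.16 ± 0.38 for Dlx2 and -0.24 ± 0.32 for Dlx5. Unadjusted p-values from edgeR ran from 0.157 for Sp8 to 0.674 for Dlx2. The median of the 7 was 0.21, beside 0.00 over all genes tested. The Sp8 and Dcx values were -0.06 and -0.18 without WT library 1, and the Meis2 value was -0.19 without Setd1a+/- library 1. Changes past the fold threshold lie within 2 SE of each of these 7 values, so changes of that size lie within the error of these values.

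**Figure D3:**
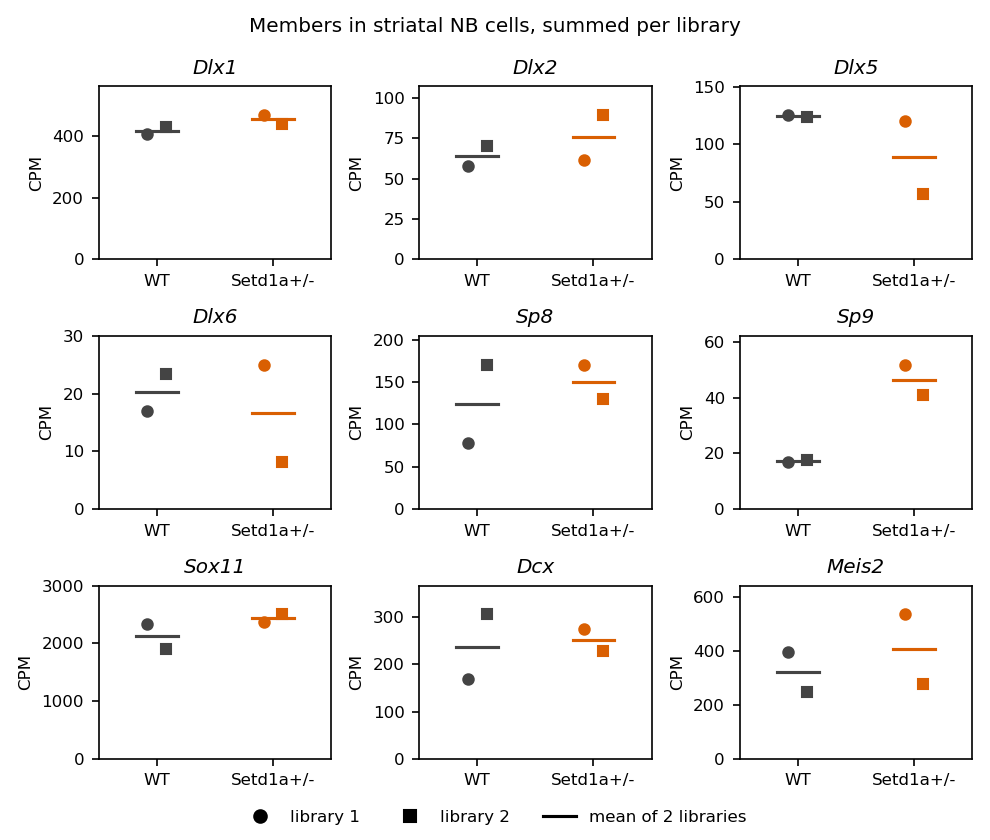
CPM of each gene in striatal NB cells summed per library, for the 2 WT and the 2 Setd1a+/- libraries, with a line at the mean of each genotype. Libraries of a genotype lie as far apart as the genotypes for most genes, and the 4 values for Dlx5 are 126, 123, 120 and 57.1.

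No gene of the companion lists was called in NB cells either. None of 13 tested GABAergic lineage regulators, 14 tested migration and cytoskeleton genes, 20 tested cell cycle genes and 9 tested neural stem cell genes was called, with medians of -0.03, 0.19, -0.02 and 0.18 on the log2 scale. The lineage regulators ran from -0.59 to 0.46, beside -0.24 to 0.48 for the members. The widest value among the lists was 1.01 ± 0.39 for Tiam2, a guanine nucleotide exchange factor for RAC, with an unadjusted p of 0.0178 and an adjusted p = 1 from edgeR. Mki67, the proliferation gene, was 261 and 176 CPM in WT against 267 and 204 in Setd1a+/- NB cells, which overlapped.

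In the mature GABAergic types no member was called between genotypes either. In striatal interneurons edgeR called 0% of 9195 genes (279 at an unadjusted p under 0.05; DESeq2 0), but 24 genes with no filter and 11 to 60 when any library was left out, none a member, and the 8 members tested had log2 fold changes of 0.14 to 0.59. In D1 MSNs it called 0% of 11015 genes (228 at an unadjusted p under 0.05; DESeq2 0), with 8 members between -0.16 and 0.39. In D2 MSNs it called 4 of 10081 genes, 0.0397%, none a member, with 7 members between -0.50 and 0.39. In PFC interneurons it called 0% of 5915 genes (161 at an unadjusted p under 0.05; DESeq2 0), with 6 members between -0.68 and 0.29. The genotype difference was also tested for a difference between tissues in interneurons, with 0% of 8374 genes called (288 at an unadjusted p under 0.05; DESeq2 0) and none of the 8 members tested. Leaving out a library gave 0 to 52 calls in D1 MSNs, 6 to 12 in D2 MSNs and 0 to 23 in PFC interneurons, again without a member. The replicate block raised the calls to 8 in striatal interneurons, 27 in D1 and 22 in D2 MSNs, none of them a member.

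Between the interneurons of the PFC and the striatum, 3 of the 6 members tested were called, Dlx1, Dlx5 and Meis2, beside 11.8% of 7419 genes. Meis2 entered the test through the striatal libraries, as described below. Dlx1 was 146 and 104 CPM in WT against 102 and 182 in Setd1a+/- interneurons of the PFC. In striatal interneurons it was 13.6 and 28.8 CPM in WT against 36.9 and 19.8 in Setd1a+/- mice. Every PFC library was above every striatal library, and the striatal level was 5.29-fold lower (log2 fold change -2.40 ± 0.28, adjusted p = 3.1e-05, edgeR quasi-likelihood test with genotype in the model). Dlx5 was 100 and 83.7 CPM in WT against 133 and 86.1 in Setd1a+/- PFC interneurons, and 28.0 and 41.9 in WT against 46.8 and 33.0 in Setd1a+/- striatal interneurons. The tissues again did not overlap, with a level 2.66-fold lower in the striatum (log2 fold change -1.41 ± 0.21, edgeR adjusted p = 0.000337).

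Meis2 went the other way. It was 2.86 and 15.9 CPM in WT against 4.44 and 0 in Setd1a+/- PFC interneurons, from 11 UMIs in all, and 170 and 137 in WT against 233 and 111 in Setd1a+/- striatal interneurons. The fitted difference was 4.56 ± 0.45 on the log2 scale (edgeR adjusted p = 5.7e-06), or 23.7-fold, and as 1 PFC library held no UMI its size depends on the prior count: the values ran from 4.25 to 5.89 over the alternatives. Meis2 passed the count filter through the striatal libraries, where it is high, and its PFC counts alone would not have passed. The call therefore adds no support beyond the counts themselves. Free RNA of the striatum was also richer in Meis2, at 236 to 259 CPM above all 4 striatal interneuron libraries, and its part in the difference was not tested.

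Of the 6 members tested between the tissues, 1 was called higher and 2 lower in the striatum, beside 5.9% of all genes called higher and 5.9% lower. The 1 called higher was Meis2, which entered the test through the striatal libraries. Dlx6 was 37.2 and 29.9 CPM in WT against 24.4 and 33.1 in Setd1a+/- PFC interneurons, and 14.4 and 21.4 in WT against 19.7 and 21.7 in Setd1a+/- striatal ones. These did not overlap, but the log2 fold change of -0.65 ± 0.28 did not pass (edgeR adjusted p = 0.154). Sox11 was 60.0 and 23.9 CPM in WT against 57.7 and 23.2 in Setd1a+/- PFC interneurons, and 69.7 and 46.9 in WT against 72.7 and 69.8 in Setd1a+/- striatal ones. In both genotypes of the PFC, library 1 was the higher, and the log2 fold change was 0.67 ± 0.28 (edgeR adjusted p = 0.140). With the replicate block Sox11 passed at 0.80 ± 0.22 (edgeR adjusted p = 0.0138). Between tissues, that block leaves the spread between library numbers of a tissue out of the error, so this pass adds no support. Barcodes of at most 100 UMIs held 34.9 to 80.1 CPM of Sox11 in the striatum against 13.7 to 19.3 in the PFC. The part of free RNA in the Sox11 difference was not tested. Dcx overlapped between the tissues (log2 fold change -0.18 ± 0.28, edgeR adjusted p = 0.745).

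Dlx2, Sp8 and Sp9 were below the count filter in this comparison. Dlx2 was 11.4 and 27.9 CPM in WT against 13.3 and 9.93 in Setd1a+/- PFC interneurons, against 1.23 to 7.54 in the striatal libraries. Sp8 was 37.2 and 25.9 CPM in WT against 13.3 and 26.5 in Setd1a+/- PFC interneurons, against 7.40 to 11.1 in the striatum. The tissues did not overlap for either gene, and with no filter both passed, at log2 fold changes of -1.68 ± 0.46 for Dlx2 (edgeR adjusted p = 0.0048) and -1.38 ± 0.37 for Sp8 (edgeR adjusted p = 0.00352). That fit called more genes in all than the main fit, as listed at the end, and their share of genes tested is not given. Dlx2 rested on 1 to 14 UMIs per library. Among the PFC libraries, barcodes of at most 100 UMIs held the most Dlx2 and Sp8 in WT library 2. The part of free RNA in the Dlx2 and Sp8 differences was not tested. Sp9 overlapped, with 3.31 to 17.8 CPM in the PFC and 7.57 to 19.7 in the striatum. Both antisense transcripts were lower in the striatum. Dlx6os1 was 157 to 234 CPM in PFC and 39.6 to 57.6 in striatal interneurons (log2 fold change -1.96 ± 0.19, edgeR adjusted p = 6.5e-06), and Dlx1as 19.9 to 46.3 against 4.11 to 16.0 (log2 fold change -1.41 ± 0.42, edgeR adjusted p = 0.0381). The Dlx1as call was lost with DESeq2 (adjusted p = 0.0581) and in turn without PFC WT library 1, PFC Setd1a+/- library 2, striatal WT library 2 and either striatal Setd1a+/- library, at adjusted p-values of 0.0518 to 0.156 in edgeR. The tissues were dissected and digested as separate preparations, so region and preparation cannot be told apart.

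**Figure D4:**
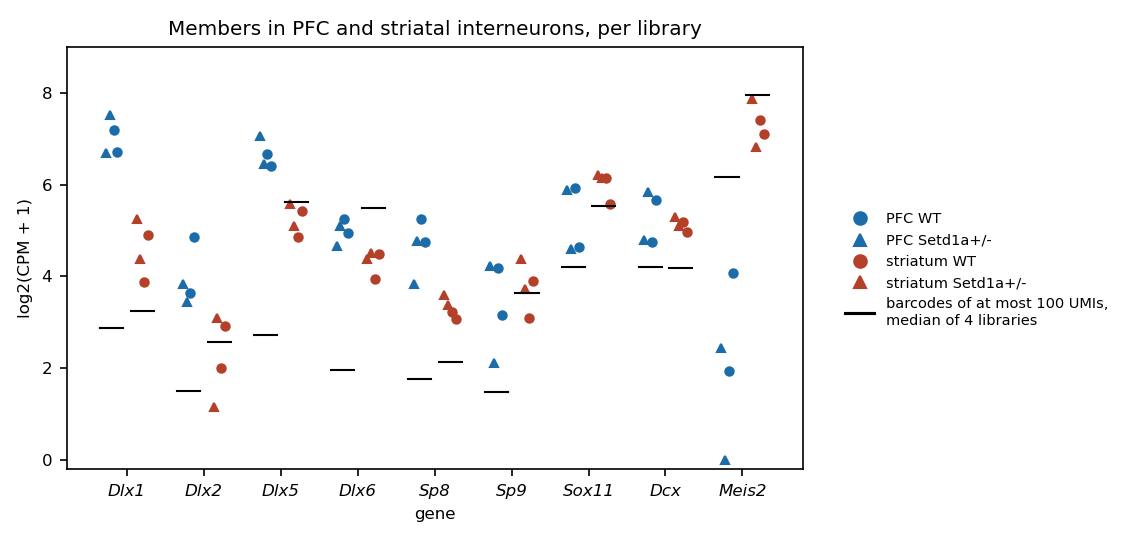
Level of each gene, as log2(CPM + 1), in the interneurons of each library, for the PFC (blue) and the striatum (red), with circles for WT and triangles for Setd1a+/-. Black lines give the median over 4 libraries of barcodes with at most 100 UMIs. Dlx1 and Dlx5 are lower and Meis2 is higher in every striatal library, and for Dlx5, Dlx6 and Meis2 the striatal line lies above the striatal points.

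The interneurons of the tissues differ in their kinds, and the members differed between sets of cells with a UMI of a given marker. In the PFC, the 59 interneurons with a UMI of Vip, a neuropeptide gene of caudally derived interneurons, held 295 CPM of Dlx1 over the 4 libraries, with 158 to 403 by library. The 107 Sst-positive interneurons held 112 CPM (98.3 to 151) and the 25 Pvalb-positive ones 69.7. Sst and Pvalb are genes of interneurons from the medial ganglionic eminence, and neither set held an Sp8 UMI at median counts of 5932 and 6428 UMIs per cell. A count of 0 allows an Sp8 UMI in up to 2.80% of the Sst set and 12.0% of the Pvalb set, which limits cells with a UMI and not cells expressing the gene. Sp8 was 34.2 CPM in the 184 Npy-positive and 31.3 in the 59 Vip-positive cells. In the striatum, where only 12 interneurons had a Vip UMI, Dlx1 was 35.2 CPM in the 171 Sst-positive, 22.7 in the 53 Pvalb-positive and 0 in the 18 Chat-positive (cholinergic) cells. The lower Dlx1 level was therefore also seen within the Sst-positive cells, at 27.9 to 48.2 CPM by library in the striatum against 98.3 to 151 in the PFC, without overlap.

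Meis2 in striatal interneurons was 199 CPM in Sst-positive cells (130 to 282 by library), 80.8 in Npy-positive (61.6 to 108) and 35.7 in Pvalb-positive cells (18.3 to 47.6), 3 sets whose library ranges did not overlap. In PFC Sst-positive cells no Meis2 UMI was found, which allows cells with a UMI up to the same 2.80%. Sp9 in the striatum was 35.7 CPM in Pvalb-positive cells (20.2 to 47.6), 20.2 in Npy-positive (13.5 to 23.5) and 16.1 in Sst-positive cells (11.2 to 19.1), where the Npy range overlapped both others. Striatal Sst stood at 4234 CPM in interneurons and at most 49.8 in any other type, but Pvalb at 64.9 CPM in interneurons and 72.5 in NFOs, and in the PFC at 98.2 against up to 60.4 elsewhere. Npy stood at 11458 CPM in PFC interneurons and up to 366 in other PFC types, and at 3217 and up to 109 in the striatum. The Npy- and Pvalb-positive sets are therefore cells with a UMI of that marker, which can be stray, and not classes of interneurons. The sets share cells with UMIs of more than a single marker, and how far a different mix of kinds accounts for the difference between tissues was not tested.

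Among the 26 GABAergic lineage regulators, 16 were tested between the tissues' interneurons, of which 3 were called higher and 8 lower in the striatum, beside 5.9% of all genes in each direction. The most extreme were Foxp2 (log2 fold change 6.19 ± 0.55) and Isl1 (5.28 ± 0.64), transcription factor genes of striatal projection and cholinergic neurons, and, lower, Nr2f2 (-3.41 ± 0.33), a gene of caudally derived interneurons, and Sox2 (-1.89 ± 0.24). All 4 were called by edgeR, but genes this far apart can pass the count filter through a single tissue, as Meis2 did. Whether they did was not examined, so these calls are given as a description. Striatal interneurons also held 372 to 564 CPM of the 8 MSN markers, and the part of free RNA in the Foxp2 and Isl1 values was not tested. Of 20 migration and cytoskeleton genes, 17 were tested, with 0 called higher and 4 lower against the same 5.9%, led by Erbb4 (-1.54 ± 0.23), the neuregulin receptor gene of interneurons. Of the neural stem cell list 2 were tested, and Egfr (-1.11 ± 0.23), a growth factor receptor gene, was called lower. None of 3 tested cell cycle genes was called. Sox4, the close relative of Sox11, gave 0.07 ± 0.27 (edgeR adjusted p = 0.901).

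Glia of the tissues were compared for the members found there. In OPCs, Sox11 was 115 to 140 CPM in the PFC and 90.6 to 154 in the striatum (log2 fold change -0.02 ± 0.18), and Dcx 61.5 to 88.4 against 54.0 to 67.8 (-0.19 ± 0.19). Both overlapped between the tissues. Of 3 members tested, Meis2 had the widest value, -0.46 ± 0.18 (edgeR adjusted p = 0.277), and none was called, beside 0.158% of 7612 genes. Those 12 calls became 392 with the replicate block, 351 with no filter, 33 with DESeq2 and 6 to 130 when a library was left out (130 without PFC WT library 2), and no member was called in any of these. In astrocytes Meis2 was 176 and 161 CPM in WT against 76.9 and 155 in Setd1a+/- PFC libraries, and 196 and 185 in WT against 198 and 255 in Setd1a+/- striatal ones (log2 fold change 0.37 ± 0.23, edgeR adjusted p = 0.352). The tissues did not overlap, yet neither Meis2 nor Sox11 (0.35 ± 0.36), the 2 members tested, passed, beside 10.4% of 5090 genes. Those calls split into 329 higher and 201 lower in the striatum, and into 408 and 127 when only library size was used for scaling, which moved the median of all genes from -0.02 to 0.09.

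NB cells were further divided by Mki67, a gene of cycling cells. A Mki67 UMI was present in 40.3% of NB cells, in 49 of 105 and 18 of 63 WT cells and 92 of 214 and 17 of 55 Setd1a+/- cells. Cells with Mki67 were deeper, with median counts of 2222 to 3314.5 UMIs against 1968.5 to 2395 without. The share of cells with a UMI is therefore given after thinning, and only for Dlx5. Sox11 was higher in the Mki67 cells of every library, at 2416 against 2262, 2194 against 1749, 2425 against 2324 and 2571 against 2467 CPM, yet by 0.16 ± 0.09 on the log2 scale only (edgeR adjusted p = 0.466). Dlx1 was 408 against 407, 476 against 404, 446 against 493 and 452 against 434 CPM, and did not keep a direction (0.02 ± 0.15).

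Dlx5 had the widest value of the members. It was 151 against 96.1, 119 against 126, 142 against 98.0 and 71.4 against 49.6 CPM in Mki67 cells against the others, higher in 3 of 4 libraries, with a log2 fold change of 0.50 ± 0.25 (edgeR unadjusted p = 0.0531, adjusted p = 0.372). After thinning, a Dlx5 UMI was found in 29.7% of 111 Mki67 cells (95% Wilson interval 22.0 to 38.8) and 14.3% of 300 others (10.8 to 18.8), intervals that cover counting error only. These shares pool the libraries, and 57 of the 111 cells came from Setd1a+/- library 1. Dcx, which marks later neuroblasts, was 163 against 177, 391 against 260, 225 against 324 and 167 against 260 CPM, lower in 3 of 4 libraries, with -0.21 ± 0.19. Sp8 gave -0.22 ± 0.24 and Meis2 0.18 ± 0.16, and both changed direction between libraries. The direction also turned in alternatives. Sp8 was 0.40 after thinning, and Meis2 was -0.30 and Sox11 -0.0035 when any of Mki67, Top2a, Cdk1 or Pclaf set the class. That last fit also lacked Setd1a+/- library 2, which had 1 cell in the other class. Dlx1 and Dcx turned as well, in alternatives given at the end. None of the 6 members tested was called, beside 3.07% of 2087 genes. Dlx2, Dlx6 and Sp9 were below the count filter, with 77, 25 and 44 UMIs in all NB cells.

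**Figure D5:**
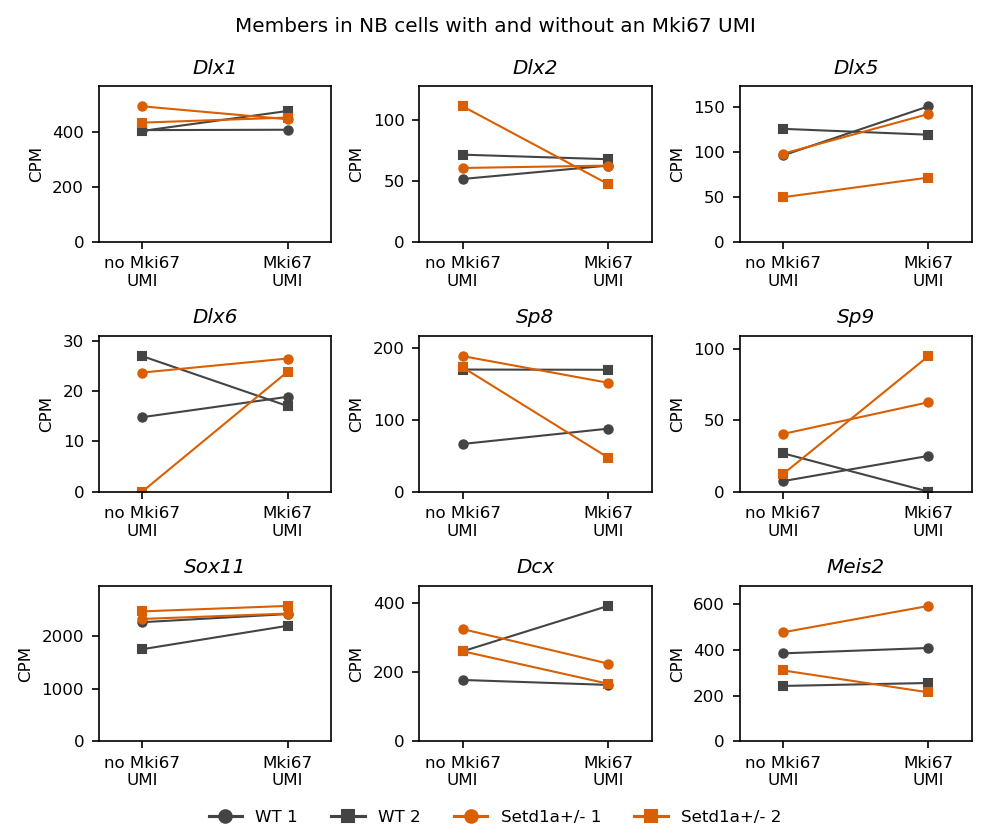
CPM of each gene in NB cells without (left) and with (right) a Mki67 UMI, with a line for each of the 4 libraries. Sox11 rises in all 4 lines by small steps, Dlx5 in 3 of 4, and the lines of Dlx1 and Sp8 cross.

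In the same comparison, in which Mki67 itself set the classes, edgeR called 9 of 20 cell cycle genes higher and none lower, led by Cenpf (log2 fold change 1.42 ± 0.14) and Ube2c (1.37 ± 0.14), both genes of mitosis. The replication genes Mcm2 (-0.87 ± 0.27) and Mcm3 (-0.72 ± 0.22) pointed the other way and did not pass. None of 13 migration genes was called, the widest being Stmn2 at -0.49 ± 0.17, a gene of growing neurites (edgeR adjusted p = 0.131). None of 5 neural stem cell genes was called.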

How the data were processed

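The authors made a UMI count matrix for each of the 8 libraries (10x Chromium, papain dissociation), and the deposited counts are raw, not normalized, with all barcodes kept. The submitters' processing notes name Cell Ranger 3.0.2, Seurat 3.2.0 and mm10. Deposited annotation tables give the library and cell type of each cell that passed the authors' cutoffs (800 genes or more, mitochondrial UMIs of 10% or less), clustered after integration of the genotypes. Barcode and gene lists hold names, and their other deposited fields are no measurements. The authors' expression tables were not used, and 0 columns of other samples were found.

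Annotated cells were looked up by barcode. CPM was computed from UMIs summed per library and type, with SD over 4 libraries, and shares of cells carry 95% Wilson intervals. For a count of 0 the limit given is 3 counts of the total, not the Wilson bound. Thinning drew 1500 UMIs per cell. Sums were tested with edgeR 4.0.16 in R 4.3.3 (quasi-likelihood, TMM, low counts removed by filterByExpr at its minimum count of 10, p-values adjusted by Benjamini-Hochberg over all genes tested), called at an FDR under 0.05 and a fold change above 1.5, which the study used in the PFC. It used a fold change above 2 in the striatum, tried here as an alternative. DESeq2 1.42.0, library size scaling, no filter, the replicate block, thinning, another cycling class and leaving out each library were alternatives. Scripts ran in Python 3.11.15 (numpy 2.4.6, scipy 1.17.1, pandas 2.3.3, matplotlib 3.10.9), and the tests were tried on simulated counts with 200 changed genes.

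The members and lists were chosen with earlier results of these data known. All 9 members are named in the NB comparisons, by genotype and by Mki67, and between the tissues' interneurons. Elsewhere members are given by counts and ranges, or only those tested are named. Companion lists are described by counts and widest folds in NB cells and in interneurons between tissues, not in glia. The lineage regulator list by Mki67 is not reported here. According to the methods a biological replicate held 1 sample per genotype, so libraries of the same number were taken as pairs in the replicate block. The main genotype fits held genotype only and did not pair them. Deviations of paired libraries from the genotype means correlated across genes at 0.24 in NB, 0.12 in striatal interneurons, 0.39 in D1 MSNs, 0.35 in D2 MSNs and 0.40 in PFC interneurons. A library pools 2 mice, and p-values of the main genotype and tissue fits measure the spread between such pools. Between tissues, the replicate block leaves out the spread between library numbers of a tissue.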

Additional observations from a re-analysis of the deposited data

Results flagged for a closer look

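Of 53 combinations of gene, tissue and type with a mean of at least 20 CPM, each with 4 libraries of both genotypes, 6 had a library farther from the rest than Dixon's 95% limit, where chance gives about 1 in 20. Dlx5 in NB was 57.1 CPM in Setd1a+/- library 2 (7 UMIs) and 120 to 126 in the others. Sox11 in striatal astrocytes was 149 CPM in Setd1a+/- library 2 (14 UMIs) and 48.4 to 65.2 in the others. Sox11 in striatal interneurons was 46.9 CPM in WT library 2 (57 UMIs) and 69.7 to 72.7 in the others. Dcx in PFC OPCs was 88.4 CPM in Setd1a+/- library 2 (33 UMIs) and 61.5 to 65.2 in the others. PFC WT library 2 had the highest Meis2 both in microglia, 151 CPM against 0 to 14.6, and in oligodendrocytes, 48.0 CPM against 11.4 to 13.9, and its barcodes of at most 100 UMIs held 113 CPM of Meis2 against 68.7 to 73.2 in the other PFC libraries. Sp8 was also highest in those barcodes of PFC WT library 2, at 17.8 CPM against at most 3.25 in the other PFC libraries. So were Dlx1 (10.8 against at most 7.47), Dlx5 (12.1 against at most 6.51) and Dlx2 (4.9 against at most 2.44). Dlx6, Sox11 and Dcx were highest there as well, and Sp9 was not (2.06 against up to 2.44). The part of free RNA in the values of this paragraph was not tested.

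In astrocytes and oligodendrocytes, the Meis2 values of the genotypes did not overlap and lay in opposite order in the 2 tissues, but neither the genotype difference nor its difference between tissues was tested, and each rests largely on 1 library. Other striatal glia did not share the rise. Meis2 was lower in Setd1a+/- OPCs (68.1 and 61.7 against 73.6 and 78.9 CPM in WT) and NFOs (32.8 and 22.9 against 85.2 and 127), and in microglia the genotypes overlapped. How many of all genes lack overlap in these glial types was not counted. In NB cells 29.9% of the 3598 genes tested lacked it. In astrocytes Setd1a+/- minus WT was -53.0 CPM in the PFC and 36.0 CPM in the striatum, and in oligodendrocytes -18.9 and 28.3 CPM. Leaving out each library in turn, an alternative chosen after seeing the data, gave -91.8 to -14.2 CPM in PFC astrocytes (smallest without Setd1a+/- library 1), -35.9 to -1.83 in PFC oligodendrocytes (smallest without WT library 2), 7.67 to 64.2 in striatal astrocytes and 12.3 to 44.3 in striatal oligodendrocytes (both smallest without Setd1a+/- library 2). That striatal library held 31 astrocytes and 67 oligodendrocytes, with 1072 and 743 CPM of the MSN markers against 269 to 907 and 163 to 342 in the others, and the part of these values in the difference was not tested.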

How the results depend on the processing

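The calls of Dlx1 and Dlx5 between tissues in interneurons held under each alternative. So did that of Meis2, which entered the test through the striatal libraries and adds no support beyond its counts. None of 424 recomputed member values in the genotype and interaction fits was called (lowest adjusted p = 0.391), although 48 changed sign. Depth limits Dlx6 and Sp9 in NB and Dlx2, Sp8 and Sp9 in interneurons.

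With the replicate block, which pairs libraries of the same number, genotype calls were 5 genes in NB, 8 in striatal interneurons, 27 in D1 and 22 in D2 MSNs, and tissue calls in OPCs 392, against 0, 0, 0, 4 and 12, while Sox11 between interneurons was called. The block changed no other call of a member. In the tissue fits its error leaves out the spread between library numbers within a tissue. With no filter on low counts, calls were 9 in NB, 24 and 6 in striatal and PFC interneurons, 16 in D1 and 16 in D2 MSNs, 7 for the interaction, and 1552, 1401 and 351 between tissues in interneurons, astrocytes and OPCs. A fold change above 2 left 581 calls between tissues in interneurons and 32 by Mki67. DESeq2 called 33 genes in OPCs and 21 by Mki67. By Mki67, 22 were called after thinning and 171 with the class set by any of Mki67, Top2a, Cdk1 or Pclaf, without Setd1a+/- library 2, which had 1 cell in the other class. The causes of these differences were not tested.

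Leaving out a library gave 0 to 25 calls in NB, 11 to 60 in striatal interneurons, 0 to 52 in D1 MSNs, 6 to 12 in D2 MSNs, 0 to 23 in PFC interneurons, 602 to 990 between tissues in interneurons, 306 to 683 in astrocytes, 6 to 130 in OPCs and 42 to 62 by Mki67.

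Some uncalled member values changed sign (log2 scale). In NB, leaving out a library gave -0.055 to 1.06 for Sp8 and -0.18 to 0.65 for Dcx, both lowest without WT library 1, and -0.19 to 0.85 for Meis2, lowest without Setd1a+/- library 1. Between tissues it gave -0.40 to 0.061 for Dcx in interneurons (0.061 without PFC WT library 2) and -0.15 to 0.11 for Sox11 in OPCs (0.11 without striatal WT library 2), and Sox11 in OPCs was 0.0043 with no filter. By Mki67, leaving out a library gave -0.028 to 0.14 for Dlx1 and -0.41 to 0.11 for Dcx (0.11 without Setd1a+/- library 1). Dlx1 was -0.0011 by library size alone, -0.081 with no filter and -0.0076 thinned, Sp8 was 0.40 thinned, and by any cycling gene Sox11 was -0.0035 and Meis2 -0.30.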
